A study of Mus musculus with 45 samples.

Results

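Small nucleolar RNA (snoRNA) host genes and nuclear long noncoding RNAs were followed in NIH-3T3, a fibroblast line derived from mouse embryos, through 10 genes: the hosts Snhg1, Snhg5, Snhg7 and Gas5, the nuclear RNAs Neat1 and Malat1, and Meg3, Mirg, Kcnq1ot1 and H19 of imprinted domains. A probe set was taken as a member when the array annotation gave it exactly 1 symbol and that symbol was one of these genes. This left 39 of 31451 probe sets and 9 of the 10 genes. Malat1 had 7 probe sets, Meg3 11, Snhg1 5, Kcnq1ot1 5, Gas5 4, Snhg5 2, Neat1 2, Mirg 2 and Snhg7 1, while H19 had 0 because its only probe set also listed Mir675.

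RNA of these cells was measured on 45 Affymetrix arrays in 11 groups, to determine RNA half-lives. In the first experiment total RNA was taken from untreated cells and from cells given 5 µg/ml of the transcription blocker actinomycin D, which binds DNA, for 1 h or for 2 h (3 arrays each). In the labelling experiments cells took up 4-thiouridine (4sU), a uridine analogue by which newly transcribed RNA can be purified. New RNA was measured after 15 min (3 arrays) and 30 min (9 arrays) of 500 µM 4sU and after 60 min of 200 µM 4sU in 2 sets labelled 60 min and 2F 60 min (3 arrays each). Unlabelled pre-existing RNA was measured for the 60 min set (3 arrays), and total RNA was measured for the 30 min set (9 arrays) and both 60 min sets (3 arrays each). The labels call the 15 min set and both 60 min sets mock, without saying of what, and do not say what 2F means. All groups came from the same line, passage 5 to 15, at about 80% density, and no group carried a genetic change.

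A snoRNA host gene is transcribed so that its introns can be trimmed into snoRNAs, which guide the modification of ribosomal RNA. The spliced exons of Gas5 and Snhg1 code for no known protein, and are known in mammalian cells to be translated briefly and then degraded by nonsense-mediated decay. Many such hosts begin with a run of pyrimidines, as do genes of the translation machinery. Neat1 is the scaffold of paraspeckles and Malat1 gathers in nuclear speckles, and both stay in the nucleus. Meg3 and Mirg are made from the maternal chromosome of the Dlk1-Dio3 domain, Kcnq1ot1 from the paternal chromosome of the Kcnq1 domain, where it silences neighbouring genes in cis.

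The promoters of the 4 hosts are shown because each of these genes had a probe set that fell under actinomycin D and was enriched in new RNA, and those of Malat1 and Meg3 because their probe sets disagreed. Each sequence holds 60 bases before the annotated start and 40 from the start on, in RefSeq's annotation of GRCm38.p6. Capitals mark the longest run of C and T within 15 bases on either side of the start, a TATA-type element or the motif TGACGTCA. The sequences lie at chr19:8723427-8723526, plus strand, for Snhg1; chr9:88522858-88522957, minus strand, for Snhg5; and chr2:26640205-26640304, minus strand, for Snhg7. The Gas5 sequence is that of its second annotated start (chr1:161035106-161035205, plus strand). The other windows are chr19:5802633-5802732, minus strand, for Malat1 and chr12:109540936-109541035, plus strand, for the first start of Meg3.
Snhg1: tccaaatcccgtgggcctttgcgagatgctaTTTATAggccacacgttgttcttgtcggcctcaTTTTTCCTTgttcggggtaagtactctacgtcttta
Snhg5: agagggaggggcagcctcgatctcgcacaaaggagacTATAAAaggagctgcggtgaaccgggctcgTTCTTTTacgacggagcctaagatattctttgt
Snhg7: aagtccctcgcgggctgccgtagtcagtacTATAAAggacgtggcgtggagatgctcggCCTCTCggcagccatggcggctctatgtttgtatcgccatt
Gas5: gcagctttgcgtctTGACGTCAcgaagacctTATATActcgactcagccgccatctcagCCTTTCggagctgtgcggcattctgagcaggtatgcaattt
Malat1: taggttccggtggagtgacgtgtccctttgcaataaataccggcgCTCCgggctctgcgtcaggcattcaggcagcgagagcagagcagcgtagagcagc
Meg3: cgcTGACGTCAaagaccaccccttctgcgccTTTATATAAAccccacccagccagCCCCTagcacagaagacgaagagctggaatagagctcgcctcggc

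A TATA-type element (TATAAA on either strand, or the motif TATATA), beginning 35 to 20 bases before the start, stood in all 4 host windows and in that of Meg3, where matches overlap. Only 2.92% of 32851 promoter windows of the mouse annotation had one. Pyrimidine runs were counted only over the 15 bases on either side of the start, here and for all windows. The longest had 9 bases in Snhg1, 7 in Snhg5, 6 in Snhg7, 6 at the second and 3 at the first Gas5 start, against 6 in Mirg, 5 at the first and 2 at the second Meg3 start, 4 in Malat1 and 3 in Kcnq1ot1. The Mirg and Kcnq1ot1 runs were cut at the edge of these bases and go on beyond it. The whole Mirg run is longer than that of Snhg1. The runs of the hosts and of the other members thus overlap in length. Runs of at least 9 were found in 7.7% of all windows, of 7 in 18.6%, of 6 in 29.2%, of 5 in 47.3%, of 4 in 69.1%, of 3 in 88.5% and of 2 in 98.7%. TGACGTCA, searched on both strands, stood in Gas5 and Meg3 and in 1.79% of all windows. The motifs were chosen after the sequences had been read, and the windows of the first Gas5 start, the second Meg3 start, Mirg and Kcnq1ot1 held no TATA-type element at that place.

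The deposited values are GCRMA intensities, used here as log2, so a level is a relative signal of one probe set and levels of different probe sets are not set against each other. A change is a difference of mean log2 intensity, with the standard error (SE) of a limma fit across all probe sets with a mean log2 intensity of 5 or more (an intensity of 32). It was called, and only then described as a rise or a fall, when the Benjamini-Hochberg adjusted p was below 0.05 and the change at least 2-fold. Where one group of a called change averaged below 5, a bound is given too, the brighter mean against a level of 5, since lower levels may not be measured in proportion. Because arrays were scaled to each other, each change is relative to the rest of the RNA on the array. Nothing states that replicates were separate cultures, so p-values measure array-to-array spread only, part or all of it possibly technical.

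The arrays were checked for libraries that stand apart. All 10 fibroblast markers lay at 7.43 to 14.17 log2 intensity in untreated cells, and none of the 3 epithelial, 2 leukocyte and 3 endothelial or muscle markers reached 5. The 9 arrays of each 30 min group fell into 3 sets of 3 by their numbers (1, 4 and 7; 2, 5 and 8; 3, 6 and 9). Total RNA arrays of the same set correlated at 0.989 to 0.996 over 15930 probe sets, and arrays of different sets at 0.926 to 0.971. For new RNA the values were 0.974 to 0.993 within sets and 0.914 to 0.986 between them. The 30 min p-values, which count 9 arrays a group, are therefore too small if the sets are 3 samples. With the arrays averaged to 3 values a group, an alternative chosen after seeing the data, 22 of 25 member calls of new over total RNA at 30 min were made. New RNA arrays 1, 4 and 7 at 30 min stood apart from the other 6, with median correlations to their group of 0.963 to 0.971 against 0.988 to 0.991 and Gapdh 3′ to 5′ probe differences of 0.29 to 0.90 against -0.14 to 0.08 log2 units. Without these 3, also chosen after seeing the data, 26 of 32 member probe sets were higher in new than in total RNA at 30 min and 0 lower. Total RNA sets at 30 min differed too. Arrays 2, 5 and 8 had Gapdh 3′ to 5′ probe differences of 0.42 to 0.62, against -0.15 to 0.05 on the others. Malat1 1418188_a_at read 13.16 to 13.66 on them and 11.21 to 11.74 on total RNA arrays 3, 6 and 9. Leaving out a whole set of total RNA was not tested. In the 60 min set, replicate 1 of new RNA had a Gapdh 3′ to 5′ probe difference of 3.07 log2 units, and total RNA replicate 1 stood above replicates 2 and 3 in several probe sets of Malat1, Meg3 and Mirg. There replicate 1 was the one nearer to total RNA of the other sets. Malat1 1427285_s_at read 6.44, 3.79 and 3.86, against 6.25 to 9.06 in untreated cells and in total RNA of the 30 min and 2F sets.

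Of the 39 probe sets 7 were too dim for any fit, among them the second probe sets of Snhg5 (1432738_at) and Neat1 (1442881_at), 2 of Kcnq1ot1 and 3 of Meg3. Over all 45 arrays Snhg5 1432738_at stayed between 2.15 and 2.48 log2 units, Neat1 1442881_at between 2.25 and 4.16, and Meg3 1428765_at, 1436057_at and 1429256_at between 2.53 and 5.93. Kcnq1ot1 1441588_at lay between 2.60 and 4.39. Kcnq1ot1 1446255_at read 4.60, 4.51 and 4.24 in new RNA of the 2F set, against 2.59, 2.50 and 2.67 in total RNA, without overlap but below the filter. The remaining member probe sets numbered 30 in the actinomycin D and 60 min fits and 32 in the 30 min and 2F fits, where Meg3 1428764_at and 1452906_at also passed. After 1 h of actinomycin D 10 of 30 member probe sets fell and 4 rose, where 3.58% of all 15060 probe sets fell and 2.57% rose. After 2 h 11 fell and 2 rose, where 9.42% of all fell and 0.538% rose. The median change of members after 2 h was -0.46 log2 units, and that of all probe sets was 0.10. Between 1 h and 2 h 5 fell, 2 each of Snhg1 (to levels below 5) and Gas5 and Malat1 1427285_s_at (-1.26), and 1 rose, where 7.32% of all fell and 2.28% rose. By class, 7 of 11 host probe sets fell after 2 h and none rose, whereas of 19 probe sets of the nuclear and imprinted RNAs 4 fell and 2 rose. Untreated cells were the only group of this fit in which Meg3 1429257_at and Mirg 1440097_at averaged 5 or more. They passed the filter through that group, so their falls at 1 h and 2 h carry less weight in these counts. In such bulk RNA, fewer cells with a transcript and less of it per cell cannot be told apart.

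More member probe sets were higher than lower in new RNA in each labelling set. At 30 min 23 of 32 member probe sets were higher and 2 lower in new than in total RNA, where 23.7% of all 16044 probe sets were higher and 25.6% lower. In the 60 min set 17 of 30 were higher and none lower, against 17.7% and 21.8% of all probe sets. In the 2F set 19 of 32 were higher and 1 lower, against 24.0% and 21.8% of all. Meg3 1428764_at (at 30 min and in the 2F set) and 1452906_at (at 30 min) passed the filter only through new RNA, so their calls there say little. With the filter on total RNA alone, chosen after seeing the data, 21 of 30 member probe sets were higher at 30 min (16.5% of all), 17 of 29 in the 60 min set (16.3% of all) and 18 of 31 in the 2F set (18.9% of all). Each of the 9 measured genes had at least 1 probe set higher in new RNA in all of these sets. For Malat1 this was 1 of 7 in the 60 min and in the 2F set, and for Meg3 1 of 6 in the 60 min set. Genes with many probe sets meet this more easily, and the share of all genes that do was not computed. The member median was 1.51 log2 units at 30 min, 1.28 in the 60 min set and 1.22 in the 2F set, and the median of all probe sets was -0.14, -0.14 and 0.04. Pre-existing RNA of the 60 min set had 10 of 30 member probe sets lower than in total RNA and none higher, where 6.96% of all were lower and 1.87% higher. New set directly against pre-existing RNA had 16 of 30 member probe sets higher and 2 lower, where 22.3% of all were higher and 30.6% lower, and Malat1 1436202_at (4.54) and Snhg1 1437658_a_at (4.53) had the largest changes. The lower ones were Malat1 1427285_s_at (-1.92, with a bound of -1.31), lost without new RNA replicate 1 (-1.28) or 3 (-2.17), and Meg3 1452183_a_at (-1.67), lost without new RNA replicate 2 (-1.39) or 3 (-1.47) or pre-existing replicate 2 (-1.50). Malat1 1427285_s_at averaged 4.40 in new, 4.70 in total and 6.31 in pre-existing RNA of this set. It passed the filter only through pre-existing RNA, so its call says little. The change of new over total RNA was lower in the 60 min than in the 30 min set in 4 of 32 (Snhg1 1454703_x_at, Gas5 1436222_at, Malat1 1429060_at and Kcnq1ot1 1442029_at) and higher in none, where 10.5% of all were lower and 8.28% higher. Between the 2F and the 60 min set limma called none of 31, with 3 at an unadjusted p below 0.05, where 0.0189% of all were higher and 0.0063% lower.

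**Figure D1:**
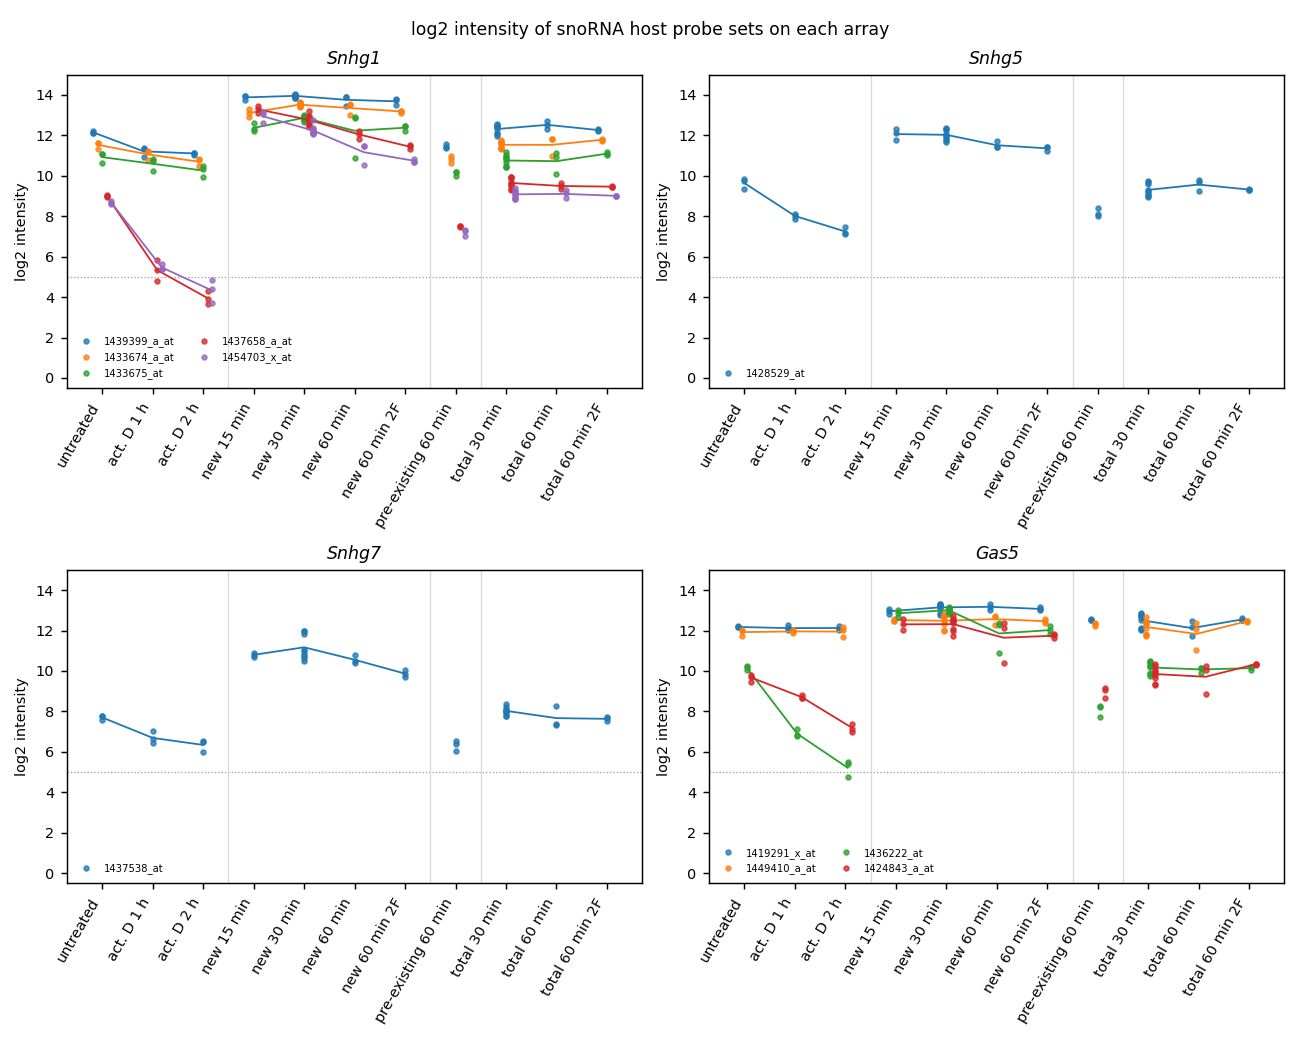
Log2 intensity (y axis) of every tested probe set of the 4 snoRNA hosts on each array (points) in the 11 groups (x axis), with lines through group means and a dotted line at the filter of 5. The probe sets of Snhg1 and Gas5 differ in how far they drop under actinomycin D, from over 4 log2 units to less than 0.1, and within Snhg1 and within Gas5 the 2 probe sets that drop furthest have the largest changes in new over total RNA at 30 min.

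Snhg1 (chr19:8723487-8726326 in GRCm38.p6, the build of all positions here), which carries a cluster of box C/D snoRNAs in its introns, split into probe sets that lost nearly all signal and others that lost little. Probe set 1437658_a_at had log2 intensities of 8.94, 9.05 and 9.02 in untreated cells, 4.78, 5.86 and 5.36 after 1 h of actinomycin D and 3.64, 3.90 and 4.29 after 2 h. The 3 groups did not overlap. Its change was -3.67 (SE 0.25, adjusted p = 3.47e-05) at 1 h and -5.06 (SE 0.25, adjusted p = 4.77e-07) at 2 h. Since its 2 h level lay below 5, it was at least 16.0-fold lower. Probe set 1454703_x_at changed by -4.35 at 2 h (SE 0.23, adjusted p = 7.77e-07) and was at least 12.7-fold lower. The further changes between 1 h and 2 h, -1.39 and -1.14, were called but ran into levels below 5, where their bounds are -0.33 and -0.46, and that of 1454703_x_at was not called without 2 h replicate 2 (-0.84).

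The other 3 Snhg1 probe sets lost at most about 1 log2 unit. Probe set 1439399_a_at read 12.13, 12.11 and 12.19 log2 units in untreated cells, 10.91, 11.37 and 11.33 after 1 h and 11.04, 11.14 and 11.12 after 2 h. Its arrays under the drug lay below all untreated arrays, and the 2 h change of -1.04 (SE 0.13, adjusted p = 0.000221) was called. At 2 h 1433674_a_at changed by -0.84 (95% interval -1.18 to -0.49) and 1433675_at by -0.67 (95% interval -1.12 to -0.21), less than 2-fold. The 95% intervals of these 3 do not reach those of 1437658_a_at and 1454703_x_at, -5.62 to -4.50 and -4.86 to -3.83, nor their bounds of -4.00 and -3.67.

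All 5 Snhg1 probe sets were higher in new RNA in every labelling set, by 1.64 to 3.15 log2 units at 30 min. At 30 min 1437658_a_at had a lowest, median and highest log2 intensity of 12.43, 12.81 and 13.21 in new RNA, against 9.29, 9.61 and 9.94 in total RNA. The groups were separated by over 2 log2 units, with a change of 3.12 (SE 0.12, adjusted p = 2.42e-14). In the 2F set it had 11.48, 11.51 and 11.32 in new RNA, against 9.46, 9.45 and 9.47 in total RNA. That is a change of 1.98 (SE 0.09, adjusted p = 1.42e-07). In pre-existing RNA it read 7.53, 7.47 and 7.52 log2 units, against 9.36, 9.49 and 9.62 in total RNA of the same set (change -1.98, SE 0.22, adjusted p = 0.000242). The call of 1433675_at in the 60 min set (change 1.50, adjusted p = 0.0366) was lost without any single 60 min array other than new RNA replicate 1, with changes of 1.16 to 1.70. That of 1439399_a_at in pre-existing over total RNA (-1.06, adjusted p = 0.0198) was lost without any single array of the 2 groups other than total RNA replicate 1 (-1.13 to -0.96).

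Gas5 (chr1:161034601-161038539), named for its rise in growth-arrested mouse fibroblasts, also had probe sets that fell and probe sets that did not. Probe set 1436222_at read 10.02, 10.26 and 10.21 log2 units in untreated cells, 6.76, 7.12 and 6.82 after 1 h and 4.75, 5.51 and 5.38 after 2 h, with no overlap. Its changes were -3.26 (SE 0.19, adjusted p = 1.42e-05) and -4.95 (SE 0.19, adjusted p = 1.64e-07). Probe set 1424843_a_at was called at 2 h and not at 1 h. It read 9.48, 9.72 and 9.82 in untreated cells, 8.65, 8.83 and 8.65 after 1 h and 7.01, 7.40 and 7.15 after 2 h, and the 2 h change was -2.49 (SE 0.14, adjusted p = 8.77e-07).

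The other Gas5 probe sets gave no sign of loss. Probe set 1419291_x_at read 12.17, 12.21 and 12.15 log2 units in untreated cells, 12.01, 12.25 and 12.10 after 1 h and 12.08, 12.25 and 12.05 after 2 h. All groups overlap, and the 2 h change of -0.05 has a 95% interval of -0.29 to 0.18. For 1449410_a_at the 2 h change was 0.03 (95% interval -0.29 to 0.34). New over total RNA showed the same split: at 30 min 1436222_at was higher by 2.83 (SE 0.10) and 1424843_a_at by 2.47 (SE 0.16), while 1419291_x_at differed by 0.63 (SE 0.13) and 1449410_a_at by 0.30 (SE 0.15), neither called. At 30 min 1436222_at had 12.81, 13.03 and 13.14 as the lowest, median and highest log2 intensity in new RNA, against 9.75, 10.26 and 10.48 in total RNA. In pre-existing RNA it had 8.22, 7.72 and 8.25, against 9.92, 10.16 and 10.14 in total RNA (change -2.01, SE 0.39, adjusted p = 0.0089). In the 60 min set, unlike the others, 1419291_x_at was called higher in new RNA (1.05, adjusted p = 0.00662), and it was not called without new RNA replicate 3 (0.98) or total RNA replicate 2 (0.87). The 60 min call of 1424843_a_at (1.93, adjusted p = 0.0143) was lost without new RNA replicate 2 (1.69) or 3 (1.56). At 1 h of actinomycin D 1424843_a_at changed by -0.97, just under 2-fold, and was called without 1 h replicate 2 (-1.03) or untreated replicate 1 (-1.06).

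Snhg5 (chr9:88521052-88522897) and Snhg7 (chr2:26637176-26640244) were each read by 1 tested probe set. Snhg5 1428529_at read 9.36, 9.71 and 9.82 log2 units in untreated cells, 7.88, 8.13 and 8.03 after 1 h and 7.09, 7.44 and 7.18 after 2 h. No array of one time overlapped another time, and the changes were -1.62 (SE 0.15, adjusted p = 0.00016) and -2.40 (SE 0.15, adjusted p = 1.85e-06). At 30 min its lowest, median and highest were 11.69, 11.98 and 12.35 in new RNA, against 8.95, 9.26 and 9.71 in total RNA, a 6.60-fold difference (adjusted p = 3.35e-13). In pre-existing RNA it read 8.02, 8.38 and 8.11, against 9.22, 9.78 and 9.68 in total RNA (change -1.39, adjusted p = 0.00569).

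Snhg7 1437538_at had the smallest loss among the host probe sets that were called at both times, with little more loss at 2 h than at 1 h. It read 7.76, 7.59 and 7.76 log2 units in untreated cells, 7.02, 6.63 and 6.43 after 1 h and 6.50, 6.54 and 6.00 after 2 h. The treated arrays all lay below the untreated ones, but the 2 treated groups overlapped. The 1 h change of -1.01 (adjusted p = 0.00318) lay at the 2-fold limit and was not called without 1 h replicate 2 or 3 or untreated replicate 1 or 3 (-0.98 to -0.88). The 2 h change was -1.36 (SE 0.18, adjusted p = 0.000342). New RNA at 30 min was 8.82-fold above total RNA for Snhg7 (change 3.14, SE 0.20, adjusted p = 1.6e-11), with 10.52, 10.97 and 11.98 as lowest, median and highest in new RNA, against 7.76, 8.03 and 8.39 in total RNA. New RNA arrays 1, 4 and 7 read 11.85 to 11.98 and the others 10.52 to 11.02, so the fold is larger with these arrays than without them. Pre-existing RNA read 6.02, 6.52 and 6.41, against 8.25, 7.40 and 7.35 in total RNA, and this call (-1.35, adjusted p = 0.02) was lost without pre-existing replicate 1 (-1.20) or 3 (-1.40).

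**Figure D2:**
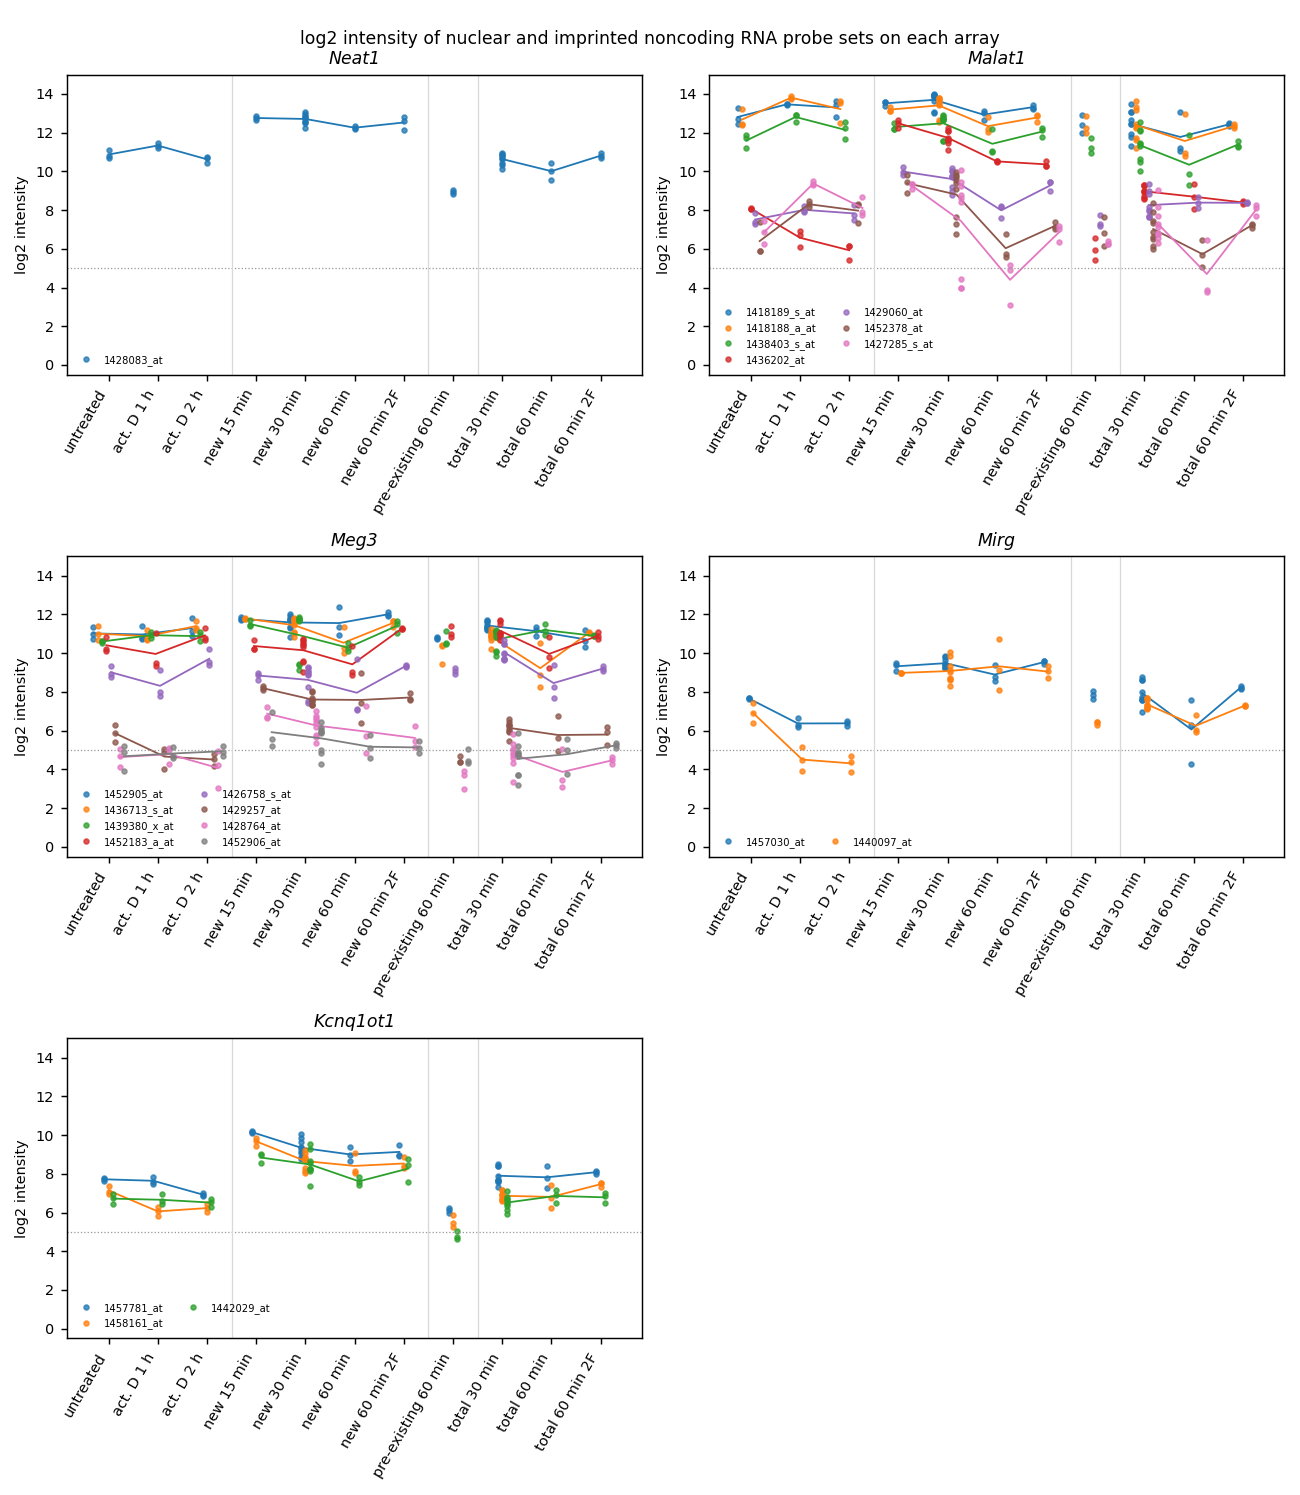
Log2 intensity (y axis) of every tested probe set of Neat1, Malat1, Meg3, Mirg and Kcnq1ot1 on each array (points) in the 11 groups (x axis), with lines through group means and a dotted line at the filter of 5. Malat1 1436202_at drops under actinomycin D while Malat1 1427285_s_at rises, and the 9 arrays of the 30 min groups are spread widely in several Malat1 and Meg3 probe sets.

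Neat1 (chr19:5824708-5845480), through 1428083_at, was higher in new RNA in every set without a called fall under actinomycin D. It read 10.80, 10.69 and 11.12 log2 units in untreated cells, 11.47, 11.22 and 11.31 after 1 h and 10.71, 10.74 and 10.41 after 2 h. The 1 h arrays all lay above the untreated ones and the 2 h arrays overlapped them; the changes were 0.46 (95% interval 0.14 to 0.79) and -0.25 (95% interval -0.57 to 0.07), and neither was called. At 30 min the lowest, median and highest were 12.25, 12.73 and 13.07 in new RNA, against 10.10, 10.71 and 10.97 in total RNA. New RNA was higher by 2.07 log2 units at 30 min (SE 0.13, adjusted p = 1.65e-11), 2.24 in the 60 min set (SE 0.26, adjusted p = 0.000193) and 1.71 in the 2F set (SE 0.16, adjusted p = 1.04e-05). Pre-existing RNA read 8.82, 9.02 and 8.95, against 10.43, 9.57 and 10.03 in total RNA, with no overlap. That change of -1.08 (adjusted p = 0.0292) was called with all arrays and was lost without any 1 pre-existing array or without total RNA replicate 1 or 3 (-1.12 to -0.87).

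Malat1 (chr19:5795690-5802672), among the most abundant nuclear RNAs of mammalian cells, had probe sets that moved in opposite directions under actinomycin D. Probe set 1436202_at read 8.07, 8.03 and 8.12 log2 units in untreated cells, 6.11, 6.91 and 6.70 after 1 h and 5.44, 6.16 and 6.17 after 2 h. All treated arrays lay below the untreated ones, with changes of -1.50 (SE 0.24, adjusted p = 0.00167) and -2.15 (SE 0.24, adjusted p = 8.34e-05). Probe set 1427285_s_at read 7.45, 6.87 and 6.25 in untreated cells, 9.36, 9.49 and 9.27 after 1 h and 7.91, 8.68 and 7.73 after 2 h. It was highest at 1 h, with no overlap between the times. Its change was 2.52 at 1 h (SE 0.30, adjusted p = 0.000621) and 1.25 at 2 h (SE 0.30, adjusted p = 0.0112).

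Another 3 Malat1 probe sets rose at 1 h. Probe set 1452378_at read 7.40, 5.90 and 5.90 log2 units in untreated cells, 8.30, 8.46 and 8.16 after 1 h and 8.33, 8.24 and 7.33 after 2 h. Untreated replicate 1 stood far above the other untreated arrays and overlapped the 2 h group; the changes were 1.90 (SE 0.39, adjusted p = 0.00585) and 1.57 (SE 0.39, adjusted p = 0.0129). At 1 h 1438403_s_at rose by 1.21 (SE 0.24, adjusted p = 0.00522) and 1418188_a_at by 1.13 (SE 0.31, adjusted p = 0.0182). The 1 h call of 1418188_a_at was lost without 1 h replicate 2 or untreated replicate 2 or 3 (0.99 to 1.09). The 2 h call of 1427285_s_at was lost without 2 h replicate 2 (0.97) or untreated replicate 3 (0.95), and that of 1452378_at without untreated replicate 3 (1.32). Probe sets 1418189_s_at (0.66 at 1 h, 0.49 at 2 h) and 1429060_at (0.50 at 1 h, 0.32 at 2 h) were not called.

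The probe set of Malat1 that fell was also the one most enriched in new RNA. At 30 min 1436202_at had 11.09, 11.66 and 12.26 as lowest, median and highest log2 intensity in new RNA, against 8.57, 9.00 and 9.31 in total RNA, a change of 2.77 (SE 0.15, adjusted p = 1.91e-12). It was higher in new RNA by 1.97 in the 2F set (SE 0.10) and lower in pre-existing than in total RNA by a log2 change of -2.72 (SE 0.38, adjusted p = 0.00109). In pre-existing RNA it read 5.43, 6.56 and 5.92, against 8.05, 9.37 and 8.66 in total RNA. Another 4 Malat1 probe sets were called higher in new RNA at 30 min, 1452378_at (1.78), 1429060_at (1.35), 1418189_s_at (1.24) and 1438403_s_at (1.14). With all arrays none of these 4 was called higher in the 60 min or the 2F set, where 1436202_at was the only 1 of 7. With the arrays averaged by set the calls of 1452378_at and 1438403_s_at were lost, and that of 1438403_s_at also without total RNA replicate 3 (0.97). By contrast 1427285_s_at had a change of 0.14 at 30 min (95% interval -1.57 to 1.84), with new RNA at 3.96, 3.98 and 4.43 on arrays 1, 4 and 7 and 8.42 to 10.06 on the other 6, against 6.31 to 9.06 in total RNA. Without new RNA arrays 1, 4 and 7 it was called higher (1.80), as was 1418188_a_at (1.26). In the 2F set it was lower in new RNA (-1.15, SE 0.23, adjusted p = 0.00112) with 7.20, 7.03 and 6.36, against 7.69, 8.10 and 8.26 in total RNA, and this call was lost without new RNA replicate 3 (-0.90).

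Total RNA replicate 1 of the 60 min set decided several Malat1 values. For 1418188_a_at total RNA read 12.95, 10.79 and 10.97 log2 units, beside 12.78, 12.20 and 12.01 in new RNA and 11.97, 12.85 and 12.22 in pre-existing RNA. Total RNA of untreated cells and of the 30 min and 2F sets read 11.21 to 13.66, which holds replicate 1 but not replicates 2 and 3. With all arrays none of 1418188_a_at, 1418189_s_at and 1438403_s_at was called in new or pre-existing over total RNA of that set. Without total RNA replicate 1 all of these were called, at 1.46, 1.79 and 1.85 for new RNA and at 1.47, 1.29 and 1.72 for pre-existing RNA. The part of that array in these values beyond leaving it out was not tested.

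Meg3 (chr12:109540996-109571729) had 1 tested probe set that fell. Probe set 1429257_at read 6.30, 5.40 and 5.89 log2 units in untreated cells, 4.04, 5.03 and 4.92 after 1 h and 4.18, 4.80 and 4.54 after 2 h. The treated arrays lay below the untreated ones, with changes of -1.20 (SE 0.30, adjusted p = 0.0126) and -1.35 (SE 0.30, adjusted p = 0.00666); the 1 h call was lost without 1 h replicate 1 (-0.89). The 1 h and 2 h levels averaged below 5, and against 5 the bound is -0.86, less than 2-fold. The same probe set was higher in new RNA by 1.46 at 30 min (SE 0.14, adjusted p = 1.07e-08) and by 1.92 in the 2F set (SE 0.22, adjusted p = 3.22e-05). At 30 min it had 7.31, 7.57 and 8.05 as lowest, median and highest in new RNA, against 5.47, 6.26 and 6.60 in total RNA. Its 60 min call (1.81, adjusted p = 0.037) was lost without new RNA replicate 1 (1.12) or 3 (1.90) or total RNA replicate 2 (1.39) or 3 (1.74).

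The other Meg3 probe sets did not follow it. None of the 5 others tested was called after 1 h or 2 h of actinomycin D, with 2 h changes of 0.27 to 0.70. Probe set 1426758_s_at changed by -0.70 at 1 h and 0.70 at 2 h, and the rise of 1.40 between 1 h and 2 h was called (SE 0.34, adjusted p = 0.0112). It read 9.15, 8.00 and 7.80 log2 units after 1 h and 10.21, 9.53 and 9.39 after 2 h. In new RNA at 30 min 1426758_s_at was lower than in total RNA by a log2 change of -1.42 (SE 0.26, adjusted p = 4.35e-05), and 1452183_a_at by -1.01 (SE 0.22, adjusted p = 0.000315). For 1426758_s_at the lowest, median and highest were 7.41, 8.91 and 9.30 in new RNA, against 9.67, 9.94 and 10.66 in total RNA, with no overlap. New RNA arrays 1, 4 and 7 were the lowest of both probe sets, and without them neither was called (-0.97 and -0.64). Probe set 1439380_x_at, not called at 30 min with all arrays, was split in the same way. In new RNA it read 9.14 to 9.45 on arrays 1, 4 and 7 and 11.66 to 11.85 on the others, against 9.87 to 11.19 in total RNA. The call of 1452183_a_at lay at the 2-fold limit and was lost without any one of new RNA replicates 1, 4 and 7 or total RNA replicates 3, 6 and 9 (-0.97 to -0.87). In the 2F set 1452905_at was called higher in new RNA (1.30, SE 0.19, adjusted p = 0.0002), and neither 1426758_s_at (0.14) nor 1452183_a_at (0.36) was called. The dim 1428764_at (1.48 at 30 min, 1.16 in the 2F set) and 1452906_at (1.06 at 30 min) were also called, but averaged below 5 in total RNA of these sets and entered the fits through new RNA, and against 5 the bounds are 1.26, 0.63 and 0.61. The call of 1452906_at was lost when the arrays were averaged by set, and without new RNA replicate 5 or total RNA replicate 1, 4 or 7 (0.90 to 1.00).

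Mirg (chr12:109734981-109749458), a host of microRNAs in the same imprinted domain as Meg3, fell in both of its probe sets. Probe set 1440097_at read 7.45, 6.40 and 6.89 log2 units in untreated cells, 5.13, 4.46 and 3.92 after 1 h and 3.88, 4.36 and 4.69 after 2 h. The treated groups overlapped each other and lay below all untreated arrays, with changes of -2.41 (SE 0.34, adjusted p = 0.00114) and -2.60 (SE 0.34, adjusted p = 0.000303). Both treated groups averaged below 5, which makes it at least 3.77-fold lower. For 1457030_at the changes were -1.30 at 1 h and -1.29 at 2 h (SE 0.14 each), so nearly all of the loss had taken place by 1 h. New RNA was higher in all sets, by 1.71 for 1440097_at and 1.54 for 1457030_at at 30 min. In the 60 min set the changes were 3.07 and 2.84, but total RNA of 1457030_at was spread over 7.58, 4.30 and 6.30. Pre-existing over total RNA was not called for either (0.13 and 1.79), and without total RNA replicate 1 that of 1457030_at was called higher (2.55).

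Kcnq1ot1 (chr7:143213111-143296547) was enriched in new RNA and depleted in pre-existing RNA, without a called fall after 2 h of actinomycin D. Probe set 1457781_at read 7.62, 7.73 and 7.80 log2 units in untreated cells, 7.85, 7.58 and 7.48 after 1 h and 6.84, 7.02 and 6.93 after 2 h. The 1 h arrays overlapped the untreated ones and the 2 h arrays did not; the 2 h change of -0.79 (95% interval -1.06 to -0.52) was below 2-fold. The 1 h change of 1458161_at, -1.08 (SE 0.17, adjusted p = 0.00165), was called, and lost without 1 h replicate 1 (-0.96) or untreated replicate 3 (-0.95). Its 2 h change of -0.91 lay close to the 2-fold limit and was not called. It read 6.24, 6.45 and 6.00 after 2 h, against 6.97, 7.05 and 7.39 in untreated cells, with no overlap. All 3 tested probe sets were higher in new RNA at 30 min (1.45, 1.79 and 1.97) and in the 2F set (1.05, 1.07 and 1.49). The 2F calls of 1457781_at and 1458161_at were lost without new RNA replicate 1 (0.86 and 0.90), and that of 1458161_at also without total RNA replicate 3 (0.99). Pre-existing RNA of 1442029_at read 4.65, 4.75 and 5.02, against 6.49, 7.16 and 6.93 in total RNA (change -2.05, SE 0.26, adjusted p = 0.000608, with a bound of -1.86), and 1457781_at changed by -1.70 (adjusted p = 0.0076). The 60 min call of 1457781_at in new over total RNA (1.18, adjusted p = 0.0134) was lost without new RNA replicate 1 (1.00) or total RNA replicate 2 (0.91). With replicate number as a block, as the pairing check allows for this comparison, 1458161_at was also called lower in pre-existing RNA (-1.29).

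**Figure D3:**
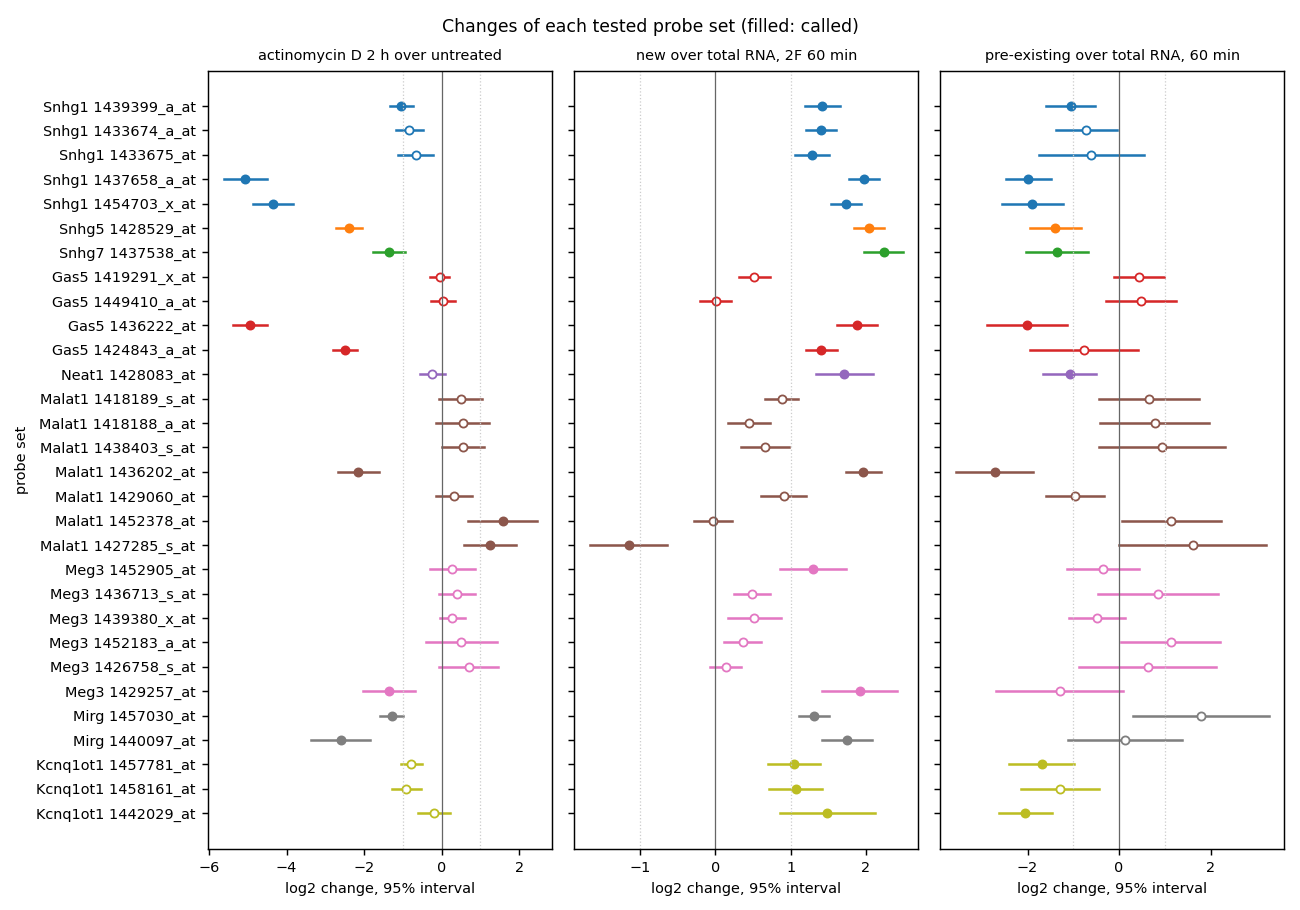
Log2 change (x axis) with its 95% interval of each tested member probe set (rows) after 2 h of actinomycin D over untreated, in new over total RNA of the 2F set and in pre-existing over total RNA of the 60 min set; filled points were called and dotted lines mark 2-fold. Snhg1, Gas5, Malat1 and Meg3 each hold probe sets on both sides of the 2-fold line in the actinomycin D panel, and most points of the 2F panel lie right of 0.

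**Figure D4:**
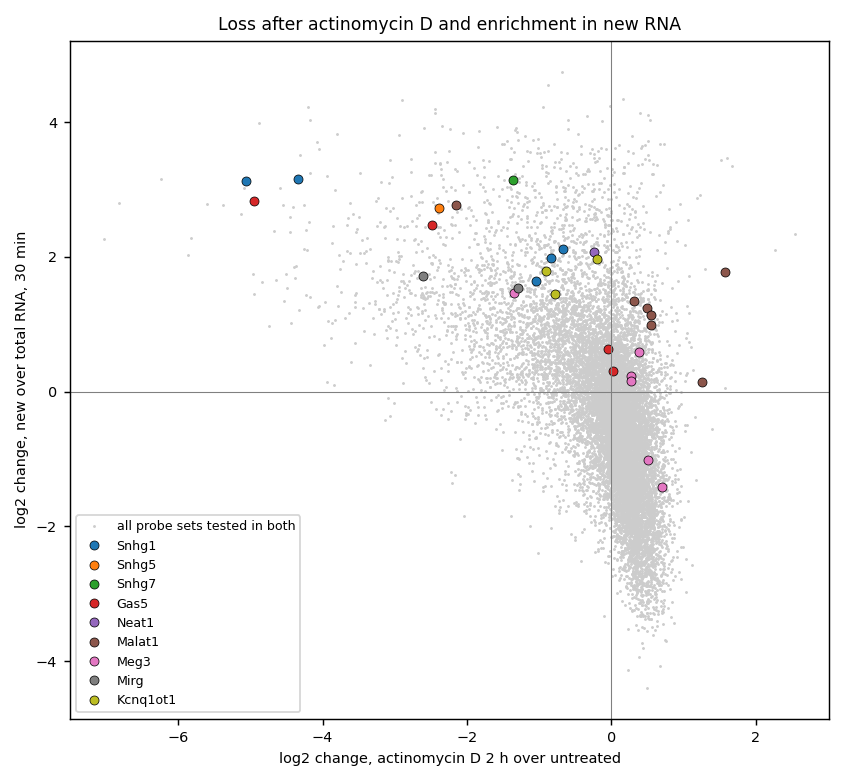
Log2 change after 2 h of actinomycin D over untreated (x axis) against log2 change of new over total RNA at 30 min (y axis) for 14053 probe sets (grey) and 30 member probe sets (coloured by gene); the axes share no arrays. The member probe sets with the largest fitted losses, of Snhg1 and Gas5, lie at the upper left, and Malat1, Meg3 and Gas5 probe sets that did not fall lie right of -0.1.

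In the plot of loss against enrichment the 2 readouts come from separate arrays. Of the 7 member probe sets with a fitted loss of over 2 log2 units at 2 h, 5 were of hosts, Snhg1 (1437658_a_at, 1454703_x_at), Gas5 (1436222_at, 1424843_a_at) and Snhg5, with new RNA changes of 2.47 to 3.15 at 30 min. The others were Malat1 1436202_at (new RNA change 2.77) and Mirg 1440097_at (1.71). Neat1 and Kcnq1ot1 1442029_at had new RNA changes of 2.07 and 1.97 at 30 min beside 2 h changes of -0.25 and -0.21. The 2 Meg3 probe sets lower in new RNA at 30 min, by calls that rest on arrays 1, 4 and 7, had 2 h changes of 0.70 and 0.51, which were not called.

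An apparent half-life, the time in which a relative level drops by 1 log2 unit if the rate of loss is constant over the 120 min, was computed for the 11 member probe sets that fell at 2 h. It was 24.3 min (95% interval 22.3 to 26.6) for Gas5 1436222_at, 48.2 min for Gas5 1424843_a_at, 50.1 min for Snhg5 and 55.8 min for Malat1 1436202_at. For the 4 probe sets with a 2 h level below 5 it is an upper bound taken against 5, at most 30.0 min for Snhg1 1437658_a_at, 32.7 min for Snhg1 1454703_x_at, 62.7 min for Mirg 1440097_at and 139.1 min for Meg3 1429257_at. Snhg7 had 88.4 min, Mirg 1457030_at 93.1 min and Snhg1 1439399_a_at 115.1 min (89.8 to 160.2), but loss was not constant. From the 1 h change alone the values were 59.5 min for Snhg7, 46.3 min for Mirg 1457030_at, 63.9 min for Snhg1 1439399_a_at, 37.0 min for Snhg5, 39.9 min for Malat1 1436202_at and 18.4 min for Gas5 1436222_at, all shorter, and 62.1 min for Gas5 1424843_a_at, which was longer. The probe sets therefore keep no fixed order by this measure. A labelling estimate was also made from new over total RNA of the 2F set, scaled with pre-existing RNA of the 60 min set. Its intervals hold the scaling factor, the new share per unit of new over total RNA, fixed at 0.1249. With total RNA of the 60 min set that factor was 0.0279. The intervals leave out this uncertainty, so they cannot decide whether labelling and actinomycin D differ. The estimate was 67.5 min for Gas5 1436222_at (51.7 to 86.2), beside 24.3 min under actinomycin D. It was 61.4 min for Snhg1 1437658_a_at (49.9 to 74.5), beside the upper bound of 30.0 min. For Snhg5 it gave 57.8 min (46.9 to 70.2), for Malat1 1436202_at 62.0 min (48.4 to 77.8), which overlap the actinomycin D intervals of 44.0 to 58.1 and 44.8 to 73.9. For Snhg7 it gave 46.9 min (34.4 to 61.2), shorter than the 88.4 min (68.0 to 126.3) from 2 h of actinomycin D, while the 59.5 min from 1 h lies within its interval. Both estimates were chosen after seeing the data, because the scaling within the 60 min set had a slope close to 0 (-0.03).

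New RNA of the longer labelling sets was set against 30 min. In the 60 min set 8 of 32 member probe sets were lower than at 30 min, where 12.1% of all 16224 were, and none was higher, against 5.23% of all. With replicate number as a block, which the pairing check allows here, 3 of the 8 were called (3 of 32), where 9.26% of all were lower, so the members' share was then near that of all probe sets. In that fit only the 3 arrays of 30 min that share a number with the 60 min set bear on the comparison, not all 9. Pairing and the loss of arrays cannot be told apart in the smaller count. Of the 8 Malat1 had 6, Snhg1 1 (1454703_x_at, -1.07) and Gas5 1 (1436222_at, -1.15). Without new RNA replicate 1 of the 60 min set neither the Snhg1 (-0.76) nor the Gas5 probe set (-0.67) was called. For Malat1 1436202_at the groups ran 12.51, 12.26 and 12.67 log2 units at 15 min, 11.09, 11.66 and 12.26 (lowest, median, highest) at 30 min and 10.51, 10.56 and 10.47 at 60 min, and the change of 60 min over 30 min was -1.22 (adjusted p = 0.000164) or -0.95 with the block, not called. In the 2F set over 30 min 5 were lower, where 7.16% of all were, and 1 was higher, where 3.69% were. The lower were Snhg1 1437658_a_at (-1.33, adjusted p = 2.56e-05), Snhg1 1454703_x_at (-1.49), Snhg7 (-1.30), Malat1 1436202_at (-1.37) and Malat1 1452378_at (-1.62), with Meg3 1452183_a_at higher (1.11). The calls of Malat1 1452378_at and Meg3 1452183_a_at were each lost without any 1 of the 2F arrays and with the 30 min arrays averaged by set. Without new RNA arrays 1, 4 and 7 of 30 min, Snhg7 (-0.92) and Meg3 1452183_a_at (0.73) were not called in the 2F set, nor was Snhg1 1454703_x_at in the 60 min set (-0.99). The groups also differ in 4sU dose and experiment, which cannot be told apart from labelling time. At 15 min over 30 min 1 of 32 was called, Kcnq1ot1 1458161_at, which was higher (1.02, adjusted p = 0.00488), where 9.5% of all were higher and 7.59% lower, and it was lost without 15 min replicate 1 or 2 or 30 min replicate 1, 4 or 7 (0.93 to 1.00).

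Total RNA of labelled cells was set against untreated cells of the actinomycin D experiment. These groups differ in experiment as well as in 4sU and, for both 60 min sets, in the treatment labelled mock, and these cannot be told apart. At 30 min and in the 2F set limma called none of 30, and 8 and 4 had an unadjusted p below 0.05. Of all 15455 probe sets 0.544% were called higher and 0.181% lower at 30 min, and 1.36% higher and 0.498% lower in the 2F set. In the 60 min set Malat1 1427285_s_at (-2.16, with a bound of -1.86, adjusted p = 0.0357) and Meg3 1436713_s_at (-1.78, adjusted p = 0.00647) were lower, where 4.98% of all were lower and 3.49% higher. Without total RNA replicate 1 there were 8 calls, all lower. The call of Malat1 1427285_s_at was lost without any 1 of the other 5 arrays, with changes of -2.46 to -1.70.

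Genes around these RNAs were read from lists of 1 probe set a gene. Of all probe sets 23.7% were higher and 25.6% lower in new than in total RNA at 30 min, and 9.42% fell after 2 h of actinomycin D. Of 9 tested noncoding hosts other than the members 8 were higher in new RNA at 30 min, with Snhg12 at 3.00 (SE 0.14), Snhg4 at 2.41 (SE 0.12), Snhg17 at 1.86 (SE 0.12) and Snhg6 at 1.75 (SE 0.13). Under 2 h of actinomycin D 2 of 8 fell, Zfas1 (-1.08) and Snhg12 (-1.06). Of 29 protein-coding snoRNA hosts 7 were higher in new RNA at 30 min and 2 lower, led by Rpl12 (3.34) and Prrc2a (-1.87), with the higher share near that of all probe sets. Of 16 proteins that assemble with snoRNAs 5 were lower and none higher, among them the assembly factors Pih1d1 (-2.20), Ruvbl2 (-2.02) and Ruvbl1 (-1.53) and the H/ACA protein Nop10 (-1.77), a share of the lower also near that of all. Their list median was -0.67, that of noncoding hosts 1.50 and that of all probe sets -0.14.

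Of 10 tested factors of nonsense-mediated decay 1 was higher in new RNA at 30 min, Upf2 (1.09), and under 2 h of actinomycin D 2 of 9 fell, Smg8 (-1.82) and Casc3 (-1.61). Of 15 paraspeckle proteins, the partners of Neat1, 3 were higher, led by Hnrnpa1 (2.13) and Cpsf6 (1.63), and 5 lower, led by Nudt21 (-1.57) and Rbm14 (-1.26). Both shares were near those of all probe sets, 23.7% higher and 25.6% lower, and the share of decay factors higher in new RNA was not above that of all. Among 9 other long noncoding RNAs 4 were higher and none lower: Mir22hg (3.04), Dancr (2.78), Dleu2 (2.72) and Ftx (2.22). Of these Dancr (-1.69), Mir22hg (-1.44) and Dleu2 (-1.34) also fell after 2 h of actinomycin D. Of 8 tested protein-coding genes of the imprinted domains 5 were lower in new RNA at 30 min and none higher, among them Cd81 (-1.95), next to the Kcnq1 domain, and Dlk1 (-1.51), the paternal gene of the domain that holds Meg3 and Mirg.

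The genes whose profile over the 11 group means was most like that of a member were ranked by Pearson's r, a description over points that share arrays. For Snhg5 they were Hnrnpa1 (0.997), Brd8 (0.995) and Chaserr (0.992), for Snhg7 Lrp6 (0.998), Sec61a1 (0.988) and Snhg4 (0.988), and for the brightest Snhg1 probe set Mcl1 (0.994), Hnrnpa1 (0.993) and Epc1 (0.992). For Neat1 they were Cflar (0.984), Prpf4b (0.982) and Pds5a (0.974), for Mirg Brd2 (0.975), Gas1 (0.975) and Prr14 (0.968), and for Kcnq1ot1 Nisch (0.988), Slit2 (0.985) and Thrap3 (0.984). For the brightest probe set of Malat1 the values were lower, with Slc25a30 (0.958), Appbp2 (0.905) and Idi1 (0.904), as they were for that of Meg3, with Kmt5a (0.903), Mycbp2 (0.901) and Wdfy3 (0.893). For the brightest Gas5 probe set, one that did not fall, they were Susd6 (0.981), Sox4 (0.979) and Slc3a2 (0.972).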

How the data were processed

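Total, newly transcribed and pre-existing RNA of NIH-3T3 cells was labelled by the Affymetrix one cycle protocol, per the labels' protocols, and hybridised to 45 arrays. The deposited values are linear intensities per probe set, made by the authors with GCRMA, per the submitters' processing notes, which give no version; GCRMA corrects background, normalizes by quantiles and sums probes on a log scale, so levels are relative. Their log2 was taken, 61 control probe sets were left out, and each fit was limited to those whose log2 averaged at least 5 over its arrays. Comparisons were fitted with limma 3.58.1 (lmFit and eBayes, R 4.3.3) on group means, without a block, with calls needing a 2-fold change and, after Benjamini-Hochberg adjustment across every probe set of the fit, a p below 0.05. The fit was tested on simulated data. The number of arrays limits precision. The members and gene lists were chosen with earlier results of these data known. Every member probe set was described; other genes were named as up to 4 per list with the largest called change, and 3 most alike per member. Same-numbered arrays deviated together in every pair (r above 0.1) in actinomycin D 1 h and 2 h over untreated, new and pre-existing over total RNA at 60 min, new RNA 60 min over 30 min and total RNA 60 min over untreated. Only for these was the alternative with a replicate block read as pairing. Their main fits, which gave the SEs and p-values quoted, did not use it. Promoter windows came from RefSeq's GRCm38.p6 annotation, which gave no window for Neat1 and H19. Alternatives were quantile normalization, no filter, a replicate block, leaving out each array, and, added after seeing the data, averaging the 30 min arrays by set (the 3 that resemble each other), leaving out new RNA arrays 1, 4 and 7 of 30 min, filtering on the second group of a comparison alone, and both half-life estimates.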

Additional observations from a re-analysis of the deposited data

Results flagged for a closer look

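In 78 sets of 9 arrays, 1 for each member probe set in each 30 min group, the highest or lowest array was set against its neighbours by Dixon's ratio, which chance alone passes in about 1 of 20 sets. The test found 2 arrays. Snhg1 1454703_x_at read 12.76 log2 units in new RNA replicate 7 at 30 min, and 12.04 to 12.33 on the other 8 arrays. Meg3 1436057_at, a dim probe set that entered no fit, read 3.64 in total RNA replicate 6 at 30 min and 3.01 to 3.16 on the others.

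The change of new over total RNA differed between the 60 min and the 30 min set, by the limma interaction term, in 4 of 32 member probe sets, all lower at 60 min, where 10.5% of all 15933 probe sets were lower and 8.28% higher. The differences were -1.09 log2 units for Snhg1 1454703_x_at (adjusted p = 0.00591), -1.05 for Gas5 1436222_at (adjusted p = 0.0194), -1.74 for Malat1 1429060_at (adjusted p = 0.0127) and -1.22 for Kcnq1ot1 1442029_at (adjusted p = 0.0456). The sets also differ in 4sU dose. Without 1 array, the count was 1 (new RNA replicate 1 or total RNA replicate 2 of the 60 min set) to 8 (total RNA replicate 1 of that set), and it was 2 without total RNA replicate 1 at 30 min. With the 30 min arrays averaged by set none of the 4 was called, with the same differences. Without new RNA arrays 1, 4 and 7 of 30 min 6 were lower and 1 higher.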

How the results depend on the processing

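No called change of a member probe set reversed its sign under quantile normalization, without the filter, with the replicate block, with any single array left out, with the 30 min arrays averaged by set, with the filter on the second group of a comparison alone, or without new RNA arrays 1, 4 and 7 of 30 min. Of 4840 values with 1 array left out 4672 kept their call, 51 gained one and 117 lost one. The call was kept in 484 of 493 values without the filter, 483 of 492 with quantile normalization, 480 of 493 with the replicate block, 180 of 190 with averaging by set, 421 of 421 with the filter on the second group and 142 of 160 without new RNA arrays 1, 4 and 7. Probe sets that an alternative removed are not among its values. With the second-group filter 21 in place of 23 were higher in new over total RNA at 30 min and 18 in place of 19 in the 2F set. For new over pre-existing RNA it was 14 in place of 16. Values called in neither setting turned sign in 218 cases, with all arrays at up to 0.64 and under the alternative at up to 0.72 log2 units in size.

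Counts of called member probe sets moved by over 1.5 times in these cases. Without the filter, 2F minus 60 min of new over total RNA had 2 calls (limma called 0 of 31 with it, and 3 had an unadjusted p below 0.05; of all probe sets 0.0189% were called higher and 0.0063% lower), and total RNA 60 min over untreated had 1 in place of 2. With the replicate block, new RNA 15 min over 30 min had 2 in place of 1, and 60 min over 30 min had 3 in place of 8. In both, only 3 of the 9 arrays of 30 min then bear on the comparison. With averaging by set, new over total RNA 60 min minus 30 min had 0 in place of 4. Without new RNA arrays 1, 4 and 7 it had 7, and new RNA 15 min over 30 min had 0. The block, or pairing, changed no other count by that much. It also changed single calls among the paired comparisons in new over total RNA at 60 min, where Meg3 1436713_s_at was called (1.31), and pre-existing over total RNA.

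With 1 array left out the number of calls ranged from 10 to 14 for actinomycin D 1 h, 10 to 13 for 2 h and 5 to 7 for 2 h over 1 h. It was 23 to 26 for new over total RNA at 30 min, 13 to 22 at 60 min and 17 to 20 in the 2F set, 7 to 14 for pre-existing over total and 16 to 18 for new over pre-existing RNA. The differences between sets had 1 to 8 calls for 60 min minus 30 min and 0 to 1 for 2F minus 60 min. New RNA had 0 to 1 for 15 min, 6 to 8 for 60 min and 4 to 7 for 2F over 30 min. Total RNA over untreated had 0 to 0 at 30 min, 1 to 8 at 60 min and 0 to 0 in the 2F set.

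Signal over background limits the 7 probe sets that entered no fit, and groups of 3 arrays limit small changes. Probe sets of a gene were not combined, their positions in the transcripts were not used here, and cross-hybridisation was not tested. The deposited scaling holds the bulk of RNA constant, so a loss shared by most RNAs would not be seen. Half-lives assume constant loss, and those from 1 h and 2 h differed by up to 2.01 times.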

Other observations

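Probe sets that list a member beside another symbol were left out of all counts above. The probe set annotated to both Mir675 and H19 (1448194_a_at) was depleted in new RNA, unlike most members. At 30 min its lowest, median and highest log2 intensity were 3.78, 4.26 and 4.68 in new RNA, against 6.73, 7.34 and 7.90 in total RNA, with no overlap. The change was -3.14 (SE 0.16, limma adjusted p = 6.16e-13) at 30 min, -3.65 (SE 0.31) in the 60 min set and -3.17 (SE 0.18) in the 2F set. Because new RNA averaged below 5 in each set, the bounds are -2.39, -1.63 and -1.65. After actinomycin D it averaged 7.06 ± 0.19 in untreated cells, 6.62 ± 0.05 after 1 h and 7.77 ± 0.21 after 2 h (SD, n = 3 each), and only the rise between 1 h and 2 h was called (1.15, adjusted p = 0.000237).

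The probe set annotated to both Snord47 and Gas5 (1455904_at) fell under actinomycin D. It averaged 9.69 ± 0.19 log2 units in untreated cells, 4.73 ± 0.55 after 1 h and 3.45 ± 0.35 after 2 h (SD, n = 3 each), with a 2 h change of -6.24 (SE 0.27, limma adjusted p = 2.35e-07). Its levels under the drug lay below 5, so only a bound of -4.69 can be set beside the member probe sets. At 30 min its lowest, median and highest were 13.05, 13.19 and 13.27 in new RNA, against 9.31, 9.96 and 10.82 in total RNA. The change was 3.15 (SE 0.17, adjusted p = 1.58e-12). In pre-existing RNA it averaged 8.13 ± 0.08, against 10.34 ± 0.23 in total RNA (change -2.21, SE 0.34, adjusted p = 0.00217).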
